A study of Homo sapiens with 12 samples.

Results

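Mitosis and spindle genes of human T47D-MTVL cells were followed through a knockdown of the chromatin remodeler CHD8 and a progestin treatment. The list held 48 genes chosen by name for their part in mitosis, at a time when earlier results of these data were known. Of these, 47 had a probe set annotated with 1 gene symbol, out of 18418 symbols on the arrays. The gene that was left out, CENPA, the histone H3 variant of centromeres, shares its probe set with SLC35F6. T47D-MTVL is a line derived from the breast cancer line T47D, expresses the progesterone receptor and carries 1 integrated copy of a reporter under the MMTV promoter. The 4 conditions were an siRNA against CHD8 (siCHD8) with the progestin R5020, the control siRNA (siCt) with R5020, siCHD8 with the ethanol vehicle (EtOH), and siCt with EtOH. All cells were transfected and then kept without serum for 48 h before 10 nM R5020 or EtOH was given for 6 h. Each condition had 3 arrays, named biological replicates in the labels, so that the tests measure the spread between these samples. The study's methods give 1 siRNA sequence under the name siCHD8, and the same 3 arrays of a condition serve in several of the comparisons below.

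Mitosis is driven by CDK1 bound to cyclins A and B, which CDC25 phosphatases switch on and which Polo-like and Aurora kinases assist at centrosomes, kinetochores and the cleavage furrow. Kinesins and microtubule-associated proteins build the spindle, kinetochore proteins attach chromosomes to it, and the checkpoint formed by MAD2L1, BUB proteins and TTK holds back CDC20 and the anaphase-promoting complex until attachment is complete. Transcripts of these genes accumulate in G2 and M phase: in resting cells and in G1 the DREAM complex represses many of them through the promoter element CHR (cell cycle genes homology region), and later B-MYB, FOXM1 and the CCAAT-binding factor NF-Y activate them. In whole cultures, fewer cells in G2 and M phase and less RNA of these genes per cell cannot be told apart.

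The siRNA target itself, CHD8, measured by probe set 7977693, was at log2 levels of 4.77, 4.62 and 4.81 under siCHD8 with R5020, against 5.52, 5.24 and 5.29 in siCt with R5020. With EtOH it had 5.42, 5.11 and 5.04 in siCHD8, against 5.70, 5.71 and 5.91 in siCt. In both treatments the siCHD8 arrays lay below the siCt arrays without overlap, at differences of -0.62 (adjusted p = 0.0627) and -0.58 (adjusted p = 0.0711). Averaged over both treatments the difference was -0.60 (SE 0.09, adjusted p = 0.00403, all from limma). CHD8 was also lower with R5020 than with EtOH, at differences of -0.42 in siCt (adjusted p = 0.0349 from limma) and -0.46 in siCHD8 (adjusted p = 0.0258 from limma). The siCHD8 EtOH array at 5.42 lay above the siCt R5020 arrays at 5.24 and 5.29. The hormone comparisons below thus also differ in the level of CHD8. Log2 intensities here are values that the authors normalized by RMA, adjusted p are from limma over all 21214 probe sets with a gene symbol, and a gene was called at an adjusted p under 0.05. The median log2 intensity of the tested probe sets lay between 4.52 and 4.62 on the 12 arrays. All 12 luminal epithelial markers exceeded the array median on every array, with a mean level of 8.79 to 8.89 on the R5020 arrays and 9.27 to 9.48 on the EtOH arrays. Of 8 fibroblast markers 2 did so, and of the 7 measured blood and endothelial markers 0 did, with mean levels of 3.27 to 3.57 and 2.15 to 2.33 over the 12 arrays. A pair of vehicle arrays stood apart from their replicates, siCHD8 EtOH replicate 1 and siCt EtOH replicate 3, which limma gave the array weights 0.417 and 0.389 where the other 10 arrays had 0.596 to 1.61. Both are kept in the values below, and results that rest on them are given without them as well.

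Averaged over the 47 genes, the log2 level was 5.92, 6.01 and 5.89 on the siCHD8 R5020 arrays, against 6.35, 6.22 and 6.29 on the siCt R5020 arrays. It was 6.28, 5.99 and 5.95 with siCHD8 and EtOH, against 6.20, 6.40 and 6.09 with siCt and EtOH. With R5020 the arrays of the siRNAs were separate, whereas with EtOH they overlapped, siCHD8 EtOH replicate 1 being within the range of the siCt arrays. On that array 44 of the 47 genes exceeded the mean of their condition, as did 10788 of all 21214 probe sets. On siCt EtOH replicate 2, 40 genes did so, against 9915 of all probe sets, and on siCt EtOH replicate 3, 35 genes lay below the mean, against 10421 of all. Most of the genes thus deviated in the same direction on each of these 3 vehicle arrays. R5020 arrays showed this too: 39 genes exceeded the mean on siCt R5020 replicate 1 and 36 on siCHD8 R5020 replicate 2, against 11292 and 10512 of all probe sets. On siCt R5020 replicate 2, 37 lay below it, against 10302 of all, while on siCt R5020 replicate 3 the genes were split, 24 above and 23 below. The counts of members below are therefore not counts of independent observations. Their SD within conditions ran from 0.099 for AURKB to 0.400 for CDK1, with a median of 0.187, against a median of 0.164 over all probe sets. The signal was not low for most of them: 36 of 47 had a mean log2 intensity of at least 5, and the other 11 (CDC25C, PLK4, TTK, KIF2C, KIF4A, KIF14, KIF15, KIF20B, CENPE, CENPI and NDC80) were treated as dim.

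**Figure D1:**
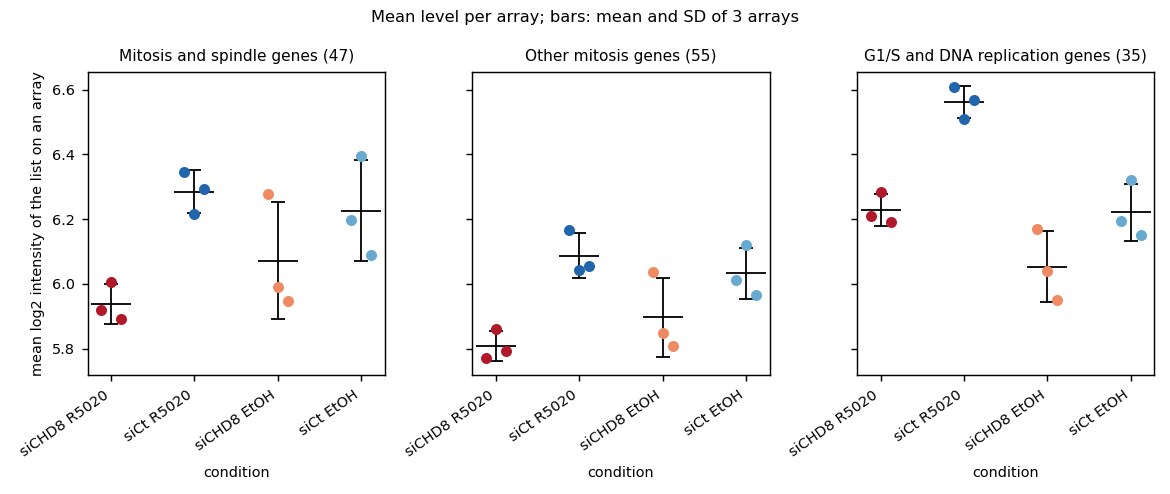
Mean log2 intensity per array (points) of the 47 mitosis and spindle genes, of 55 other mitosis genes and of 35 G1/S and DNA replication genes, by condition, with the mean and SD of 3 arrays. The 3 siCHD8 R5020 arrays of the first panel sit at 5.89 to 6.01, below the siCt R5020 arrays at 6.22 to 6.35, and the EtOH conditions overlap.

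**Figure D2:**
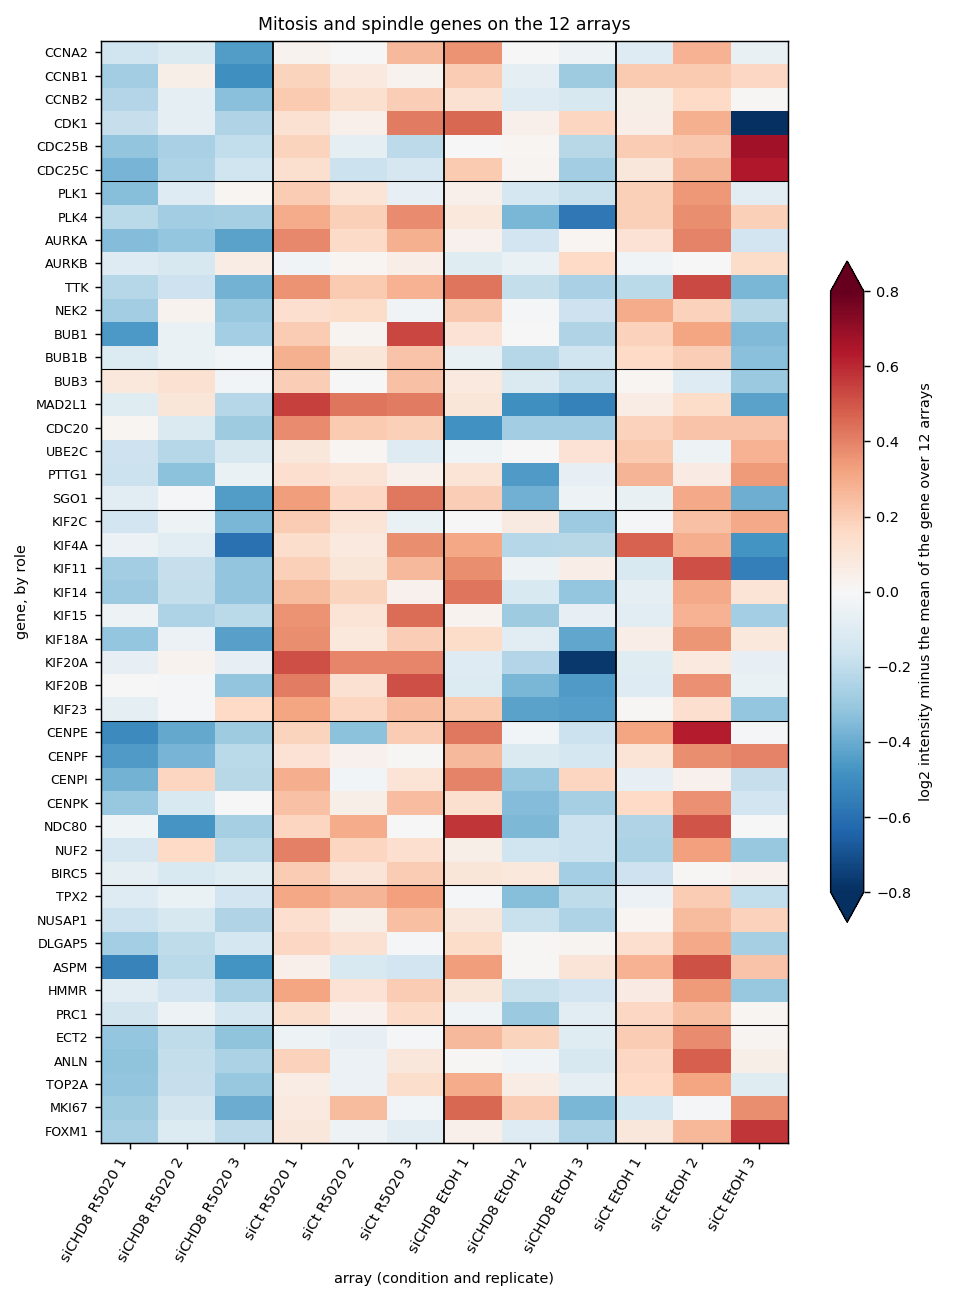
Log2 intensity of each gene (rows, grouped by role) on each of the 12 arrays (columns, by condition and replicate) minus the mean of that gene over the arrays; red is above and blue below the mean. The siCHD8 R5020 columns are mostly blue and the siCt R5020 columns mostly red, and the first siCHD8 EtOH column differs from the other siCHD8 EtOH columns.

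The promoters shared sequence features that the choice of genes did not use. RefSeq promoter windows of the assembly GRCh38.p14, 250 bases before to 50 bases after a start, were matched by symbol for 40 of the 47 genes and gave 52 windows. The CHR core TTTGAA, searched on both strands, was in 57.7% of these windows, against 15.2% of all 35116 windows. The NF-Y box CCAAT, on both strands, was in 71.2% of the members' windows and in 34.6% of all windows, and at least 2 boxes were in 38.5%, against 10.8% of all. Both motifs stood in 44.2% of the members' windows and in 5.9% of all. The forkhead core TAAACA was in 7.69%, against 12.3% of all. Matches of these motifs can share at most 1 base with each other. A match is a description of the letters and not a test of binding. The windows below are those of CCNB1, CCNB2 and PLK1, as well studied mitotic promoters, of CDC20, the gene called for the knockdown in vehicle, and of ASPM, which was called for the hormone and was added after its values were seen. Capitals mark TTTGAA and CCAAT or their reverse complements. CCNB1 lies at chr5:69166900-69167199, CCNB2 at chr15:59104896-59105195, PLK1 at chr16:23678639-23678938 and CDC20 at chr1:43358731-43359030, all on the plus strand, and ASPM at chr1:197146620-197146919 on the minus strand, each printed 5′ to 3′ in the direction of the gene.
CCNB1: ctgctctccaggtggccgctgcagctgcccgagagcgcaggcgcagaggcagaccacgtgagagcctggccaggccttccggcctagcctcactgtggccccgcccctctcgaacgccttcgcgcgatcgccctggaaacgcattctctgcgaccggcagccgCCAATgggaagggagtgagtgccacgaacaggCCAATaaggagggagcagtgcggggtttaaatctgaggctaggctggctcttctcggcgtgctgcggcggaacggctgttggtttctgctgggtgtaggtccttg
CCNB2: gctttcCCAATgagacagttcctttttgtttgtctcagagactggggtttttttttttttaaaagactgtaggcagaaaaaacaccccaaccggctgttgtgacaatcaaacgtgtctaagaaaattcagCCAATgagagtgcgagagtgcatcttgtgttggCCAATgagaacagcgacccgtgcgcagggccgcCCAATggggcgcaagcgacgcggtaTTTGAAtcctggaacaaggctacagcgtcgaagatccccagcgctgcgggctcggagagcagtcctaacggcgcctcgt
PLK1: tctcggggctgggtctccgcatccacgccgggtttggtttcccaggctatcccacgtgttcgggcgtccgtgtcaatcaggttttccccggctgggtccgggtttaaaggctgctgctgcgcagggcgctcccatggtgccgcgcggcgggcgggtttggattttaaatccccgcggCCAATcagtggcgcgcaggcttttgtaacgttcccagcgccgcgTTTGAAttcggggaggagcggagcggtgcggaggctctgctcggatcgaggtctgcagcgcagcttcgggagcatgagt
CDC20: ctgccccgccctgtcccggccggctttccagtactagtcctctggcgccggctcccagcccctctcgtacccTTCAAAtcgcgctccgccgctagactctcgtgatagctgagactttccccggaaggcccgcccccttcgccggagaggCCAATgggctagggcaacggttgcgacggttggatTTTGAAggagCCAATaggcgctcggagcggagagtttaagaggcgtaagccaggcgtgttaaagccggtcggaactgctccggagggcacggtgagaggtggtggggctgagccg
ASPM: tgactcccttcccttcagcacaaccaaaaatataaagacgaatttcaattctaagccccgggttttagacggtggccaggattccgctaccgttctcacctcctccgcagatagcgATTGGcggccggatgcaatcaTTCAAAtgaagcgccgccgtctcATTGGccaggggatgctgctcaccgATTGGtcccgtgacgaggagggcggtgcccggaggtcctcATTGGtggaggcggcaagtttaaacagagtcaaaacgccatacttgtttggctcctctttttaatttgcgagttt
CCNB1 held 2 CCAAT boxes and no TTTGAA in this window, CCNB2 held 4 CCAAT boxes and 1 TTTGAA, and PLK1 held 1 of each. CDC20 held 2 TTTGAA and 2 CCAAT, and ASPM held 1 TTTGAA and 4 CCAAT.

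The first question was whether these transcripts differed between siCHD8 and siCt cells under R5020. All 47 estimates were below 0, with a median log2 difference of -0.34 and a range of -0.63 to -0.07, whereas 47.8% of all probe sets tested, and 62.7% of those with a mean log2 intensity of at least 5, were below 0 and the median over all probe sets was 0.01. The share of the brighter probe sets was counted for this comparison alone. Shares below 0 given for the other comparisons are not matched for level. In 36 of the 47 genes the 3 siCHD8 arrays lay below the 3 siCt arrays without overlap, against 15.3% of all probe sets, and in 0 genes they lay above, against 12.3% of all. By limma 0 of the 47 genes were called, where 0.189% of all probe sets were, and 26 had an unadjusted p under 0.05 with a lower level, against 7.67% of all probe sets, and 0 with a higher one, against 6.24%. No single gene is therefore called lower in this comparison, and the pattern is one of many small differences of the same sign. With each of the 6 R5020 arrays left out in turn, all 47 estimates were still below 0, with medians between -0.39 and -0.32. The vehicle arrays enter this comparison only through the shared estimate of the spread, so that leaving them out cannot move the estimates but can move the calls. AURKA, MAD2L1 and PLK4 were called lower with the pair of vehicle arrays left out. The share of all probe sets called in that fit is not given.

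Among the cyclins, CDK1 and the CDC25 phosphatases that activate it, 6 of 6 estimates were below 0, with a median of -0.34. Cyclin A2 (CCNA2), a partner of CDK1 and CDK2, had log2 intensities of 7.28, 7.32 and 6.99 in siCHD8, against 7.47, 7.44 and 7.70 in siCt. Its arrays did not overlap, and the difference was -0.34 (SE 0.14, adjusted p = 0.316 from limma). Cyclin B2 (CCNB2) gave -0.39 (SE 0.11, adjusted p = 0.142 from limma) and cyclin B1 (CCNB1), the other main partner of CDK1 in mitosis, gave -0.34 (SE 0.14, adjusted p = 0.316 from limma). CDK1 itself differed by -0.36 with the largest SE of the list, 0.26.

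The 8 mitotic kinases ran from -0.63 to -0.07 with a median of -0.39. Aurora A (AURKA), which acts at centrosomes and spindle poles, had log2 intensities of 6.47, 6.50 and 6.38 in siCHD8, against 7.20, 6.96 and 7.10 in siCt. The groups were far apart relative to their spread, with a level in siCHD8 of 64.4% of siCt, a log2 difference of -0.63 (SE 0.13) and the lowest adjusted p of the list, 0.0646 from limma (0.00674 to 0.259 over the alternatives). PLK4, the kinase that starts centriole duplication and a dim probe set, had 4.73, 4.67 and 4.68 in siCHD8, against 5.24, 5.14 and 5.32 in siCt, a difference of -0.54 (SE 0.14, adjusted p = 0.127 from limma). The checkpoint kinase TTK, also dim, had 3.99, 4.05 and 3.84 in siCHD8, against 4.57, 4.43 and 4.49 in siCt, which differed by -0.54 (SE 0.21, adjusted p = 0.269 by limma). The arrays of the siRNAs were separate for both kinases. Polo-like kinase 1 (PLK1) had 8.09, 8.33 and 8.44 in siCHD8, against 8.63, 8.53 and 8.36 in siCt, and these overlapped (-0.22, SE 0.13). Aurora B (AURKB), the kinase of the chromosomal passenger complex, had the smallest difference of all members, -0.07, with a 95% interval of -0.30 to 0.16.

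Partners of the checkpoint and of anaphase, 6 of 6 below 0, had a median of -0.33. MAD2L1, the inhibitor of CDC20 at unattached kinetochores, had log2 intensities of 5.32, 5.52 and 5.19 in siCHD8, against 5.97, 5.85 and 5.83 in siCt. CDC20, the activator of the anaphase-promoting complex, had 7.39, 7.26 and 7.09 in siCHD8, against 7.75, 7.58 and 7.57 in siCt. Every siCHD8 array was below every siCt array for both genes, at -0.54 (SE 0.18, adjusted p = 0.195 from limma) for MAD2L1 and -0.39 (SE 0.11, adjusted p = 0.152 from limma) for CDC20. BUB3, another checkpoint protein, gave -0.09 and is the 1 gene of this group whose arrays overlapped. Of all probe sets 15.3% were lower without overlap.

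All 9 kinesins, the motor proteins of the spindle and midzone, had estimates below 0, from -0.48 for KIF18A to -0.22 for KIF23, and the median of -0.44 was the lowest of the 7 role groups. For 8 of them the siCHD8 arrays lay below the siCt arrays without overlap, as did 15.3% of all probe sets. KIF20A, a motor of the central spindle needed for cytokinesis, had 6.64, 6.73 and 6.63 in siCHD8, against 7.21, 7.09 and 7.09 in siCt (-0.46, SE 0.14, adjusted p = 0.179 from limma). KIF23, its neighbour in the midzone as part of centralspindlin, had 6.78, 6.85 and 7.02 in siCHD8, against 7.18, 7.03 and 7.11 in siCt (-0.22, SE 0.16). Even the highest siCHD8 array of KIF23 was just under the lowest siCt array. KIF2C, a microtubule-depolymerizing kinesin of the centromere, was the kinesin whose arrays overlapped. KIF4A, a chromosome-bound kinesin, gave -0.44 at its own probe set and -0.14 at another that is annotated to it and to its near-identical copy KIF4B, so its value is uncertain.

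At the kinetochore 7 of 7 measured genes had estimates below 0, with a median of -0.32. CENPF, a large protein of the outer kinetochore, had 6.90, 6.99 and 7.15 in siCHD8, against 7.48, 7.40 and 7.37 in siCt, which were separate (-0.40, SE 0.13, adjusted p = 0.186 from limma). NUF2, a subunit of the NDC80 complex that binds microtubules, had 5.01, 5.31 and 4.93 in siCHD8, against 5.55, 5.32 and 5.28 in siCt (-0.30, SE 0.16), and its second siCHD8 array was within the siCt values. For survivin (BIRC5), a passenger complex subunit, the difference was -0.27 (SE 0.11), while its second, dimmer probe set gave 0.06 (SE 0.14).

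The 6 microtubule-associated proteins were all separate between the siRNAs, with a median of -0.33, where 15.3% of all probe sets were lower without overlap. NUSAP1, which bundles spindle microtubules near chromosomes, had 7.59, 7.63 and 7.52 in siCHD8, against 7.90, 7.81 and 8.0 in siCt (-0.32, SE 0.12, adjusted p = 0.231 from limma). TPX2, the activator of Aurora A, gave -0.40 (SE 0.12, adjusted p = 0.162 from limma). The 5 genes of cytokinesis, chromosome structure and transcription were likewise separate, from -0.38 for the proliferation marker MKI67 to -0.18 for FOXM1, the forkhead activator of mitotic genes. Among them ECT2, which activates RhoA at the cleavage furrow, had 8.10, 8.20 and 8.09 in siCHD8, against 8.36, 8.34 and 8.40 in siCt (-0.24, SE 0.12).

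**Figure D3:**
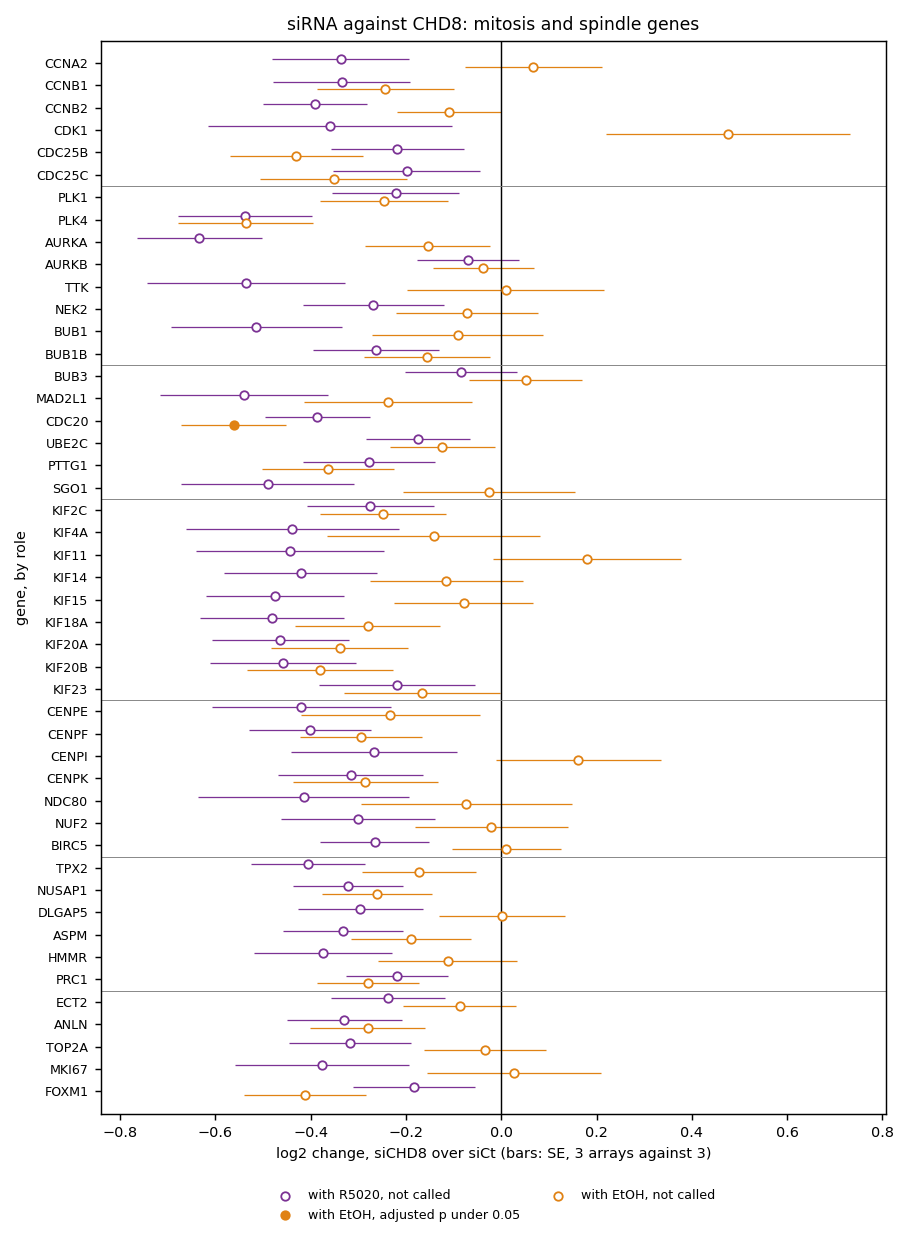
Log2 change of siCHD8 over siCt for each gene (rows, grouped by role) with R5020 (purple) and with EtOH (orange), with the SE as bars; a filled point marks an adjusted p under 0.05 from limma. All 47 purple points are left of 0 and none is filled, while 38 of the 47 orange points are left of 0 and CDC20 is the filled one.

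In vehicle the knockdown gave 1 call. CDC20 fell, with log2 intensities of 6.89, 7.09 and 7.09 in siCHD8, against 7.56, 7.60 and 7.60 in siCt. The siCHD8 arrays were all lower than the siCt arrays, the siCHD8 level was 67.7% of siCt, and the difference was -0.56 (SE 0.11, adjusted p = 0.0498 from limma). The background in this comparison was 0.292% of all probe sets called in either direction and 0.179% called lower. The call stood at the threshold: the adjusted p was 0.0137 to 0.362 over the alternatives, it passed in 5 of 23, and it was lost, at 0.0675 to 0.126, whichever of the 12 arrays was left out.

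Of the 47 genes 38 had an estimate below 0 with EtOH, against 51.2% of all probe sets, a share not matched for level, and the median was -0.15, against -0.01 over all. The siCHD8 arrays lay below the siCt arrays without overlap in 8 genes, against 8.06% of all probe sets, and 12 genes were lower at an unadjusted p under 0.05, against 6.98% of all. PLK4 was among the 8, with 5.03, 4.58 and 4.37 in siCHD8, against 5.14, 5.32 and 5.13 in siCt (-0.54, SE 0.14, adjusted p = 0.131 from limma). Without siCHD8 EtOH replicate 1, its highest siCHD8 array, PLK4 was called lower (-0.72, adjusted p = 0.0334 from limma), as it was with the pair of vehicle arrays left out. FOXM1 was also among the 8, with 6.58, 6.43 and 6.29 in siCHD8, against 6.63, 6.80 and 7.11 in siCt (-0.41, SE 0.13, adjusted p = 0.199 from limma). The largest positive estimate was that of CDK1, 0.48 (SE 0.26), which had 6.85, 6.44 and 6.56 in siCHD8, against 6.45, 6.68 and 5.30 in siCt, so that the third siCt array alone was far below the rest. These counts rested on single arrays. The median of the members was -0.28 without siCHD8 EtOH replicate 1 and -0.06 without siCt EtOH replicate 2. With siCHD8 EtOH replicate 1 and siCt EtOH replicate 3 both left out it was -0.35, and 46 of 47 estimates were below 0. On average the members deviated from their condition by 0.21 on siCHD8 EtOH replicate 1 and by -0.14 on siCt EtOH replicate 3. Leaving out this pair can thus only lower the members' mean estimate here. The siCt array that deviated the other way, replicate 2 at 0.17, was kept.

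Averaged over R5020 and EtOH, a comparison of 6 siCHD8 with 6 siCt arrays that was added after the data were seen, 46 of the 47 estimates were below 0, against 47.7% of all probe sets, and the median was -0.26. CDK1 was the exception, at 0.06. The share of all probe sets was not matched for level. By limma 3 genes were lower: PLK4 by -0.54 (SE 0.10, adjusted p = 0.0136), CDC20 by -0.47 (SE 0.08, adjusted p = 0.00718) and AURKA by -0.39 (SE 0.09, adjusted p = 0.0455). Of all probe sets 1.39% were called lower and 0.372% higher. CDC20 was called in all 22 alternatives run and PLK4 in 20 of 21, whereas AURKA was called in 9 of 22 and lost its call in 10 of the 12 fits that left out 1 array. The number of genes called ranged from 1 to 20 over the alternatives. It was 13 without siCHD8 EtOH replicate 1 and 20 with the pair of vehicle arrays left out, all lower. The shares of 1.39% and 0.372% belong to the fit reported, and shares of all probe sets in these alternatives are not given. The 13 and 20 calls therefore cannot be set against a background. Leaving out the pair also lowers the mean estimate with EtOH, as described above.

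The second question was how R5020 acted on these genes. In siCHD8 cells, ASPM and ECT2 were lower with R5020 than with EtOH and 0 members were called higher (1 at an unadjusted p under 0.05), where 5.43% of all probe sets were called lower and 6.04% higher. ASPM, a protein of the spindle poles whose human mutations cause microcephaly, had log2 intensities of 5.07, 5.39 and 5.13 with R5020, against 5.94, 5.61 and 5.71 with EtOH. These arrays were separate, the level with R5020 was 67.9% of EtOH, and the difference was -0.56 (SE 0.13, adjusted p = 0.00807 from limma), which was called in all 23 alternatives at an adjusted p of 0.00289 to 0.0465. ECT2 had 8.10, 8.20 and 8.09 with R5020, against 8.66, 8.59 and 8.31 with EtOH, also without overlap (-0.39, SE 0.12, adjusted p = 0.0466 from limma). Its call was lost in 9 of the 12 fits without 1 array and stood in 10 of 23 alternatives, with an adjusted p of 0.00877 to 0.145.

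Over the whole list 35 of 47 estimates were below 0 in siCHD8, against 54% of all probe sets, with a median of -0.18, against -0.02 over all. The R5020 arrays lay below the EtOH arrays without overlap in 12 genes, against 14.2% of all probe sets, and above in 1, KIF20A, against 13% of all. KIF20A had 6.64, 6.73 and 6.63 with R5020, against 6.60, 6.47 and 5.93 with EtOH (0.33, SE 0.14, adjusted p = 0.177 from limma). The median depended on 1 array, being -0.029 without siCHD8 EtOH replicate 1, the array on which 44 members exceeded their mean. Without it KIF23 was called higher and ECT2 was not called.

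In siCt cells R5020 gave 2 calls of 47, 1 in each direction, where 8.1% of all probe sets were called higher and 6% lower. KIF20A rose, with log2 intensities of 7.21, 7.09 and 7.09 with R5020, against 6.60, 6.78 and 6.63 with EtOH. Its arrays were separate and the R5020 level was 137% of EtOH, a difference of 0.46 (SE 0.14, adjusted p = 0.0455 from limma). ASPM fell, with 5.64, 5.48 and 5.45 with R5020, against 5.88, 6.11 and 5.83 with EtOH, again without overlap (-0.42, SE 0.13, adjusted p = 0.0390 from limma). Both calls were near the threshold: that of KIF20A was lost in 9 and that of ASPM in 6 of the 12 fits without 1 array, and over all alternatives their adjusted p were 0.00575 to 0.145 and 0.0162 to 0.134. The split also moved with the scaling, since after quantile normalization of all probe sets on the arrays 0 genes were called higher and 4 lower (ASPM, CDC25B, ECT2 and FOXM1). Shares of all probe sets called after quantile normalization are not given, so these counts have no background.

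The median of the list in siCt was 0.05, against -0.05 over all probe sets, and 18 of 47 estimates were below 0, against 58.8% of all. Quantile normalization brought this median to -0.0018. The R5020 arrays were above the EtOH arrays in 5 genes, against 15.3% of all probe sets, and below in 4, against 18.7%. MAD2L1, above without overlap, had 5.97, 5.85 and 5.83 with R5020, against 5.48, 5.57 and 4.99 with EtOH (0.54, SE 0.18, adjusted p = 0.0541 from limma). It was called higher in 10 of 23 alternatives, where KIF20A was called in 11. FOXM1, below without overlap, had 6.63, 6.49 and 6.45 with R5020, against 6.63, 6.80 and 7.11 with EtOH (-0.32, SE 0.13, adjusted p = 0.116 from limma), its highest R5020 array being just under its lowest EtOH array. For NUF2 (0.31, SE 0.16), TTK (0.30, SE 0.21) and CDK1 (0.44, SE 0.26) the arrays overlapped and no test passed. Kinesins had a median of 0.24 with 8 of 9 estimates above 0, while cytokinesis, chromosome and transcription genes had -0.16 with 4 of 5 below 0. Without siCt EtOH replicate 2, on which 40 members exceeded their mean, 6 genes were called higher (KIF11, KIF15, MAD2L1, NUF2, TPX2 and TTK) and 0 lower. The share of all probe sets called in that fit is not given. No member reached a change of 1.5-fold in siCt, whereas 6.55% of all probe sets did so at an adjusted p under 0.01.

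**Figure D4:**
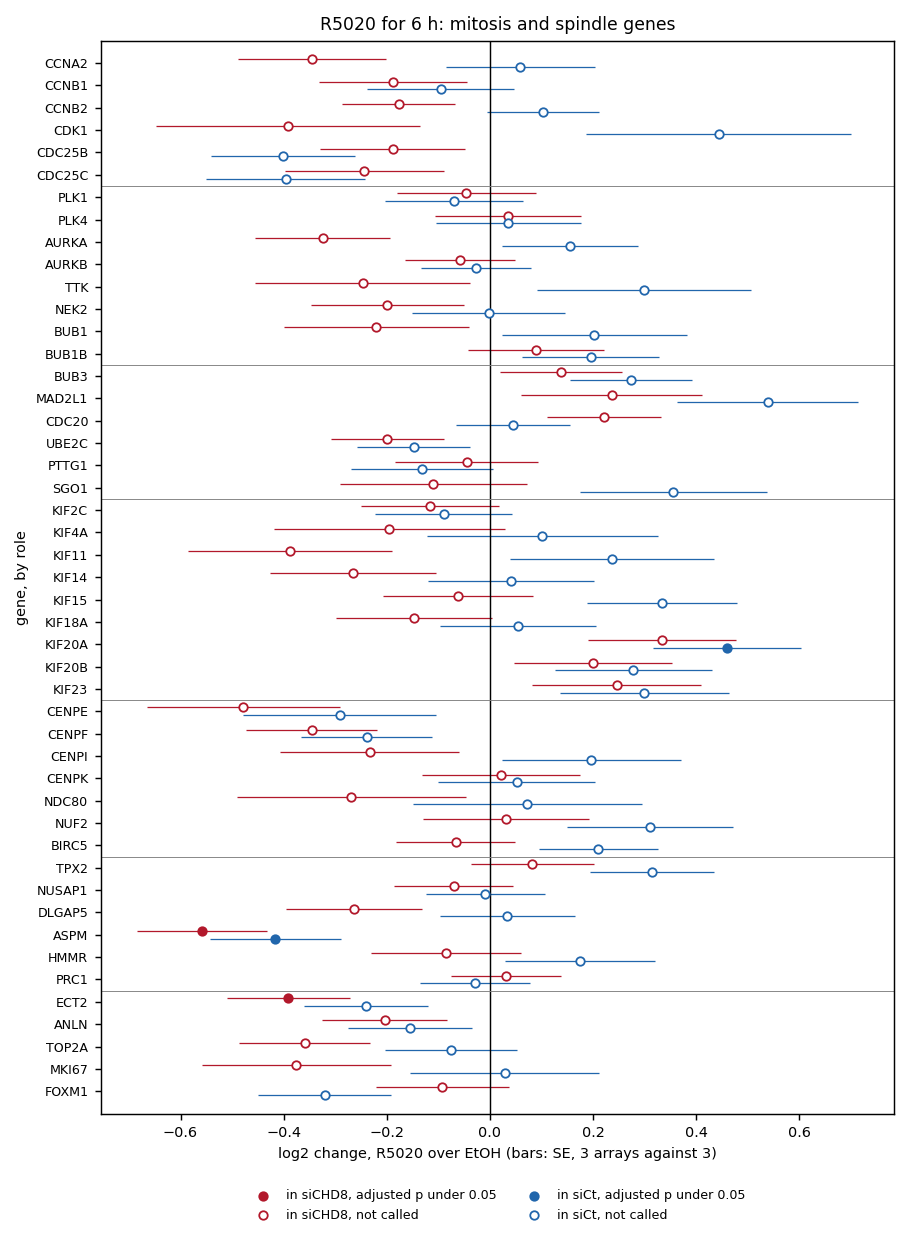
Log2 change of R5020 over EtOH for each gene (rows, grouped by role) in siCHD8 (red) and in siCt (blue), with the SE as bars; a filled point marks an adjusted p under 0.05 from limma. ASPM is filled in both, ECT2 in siCHD8 and KIF20A in siCt, and all points lie within 0.56 of 0.

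**Figure D5:**
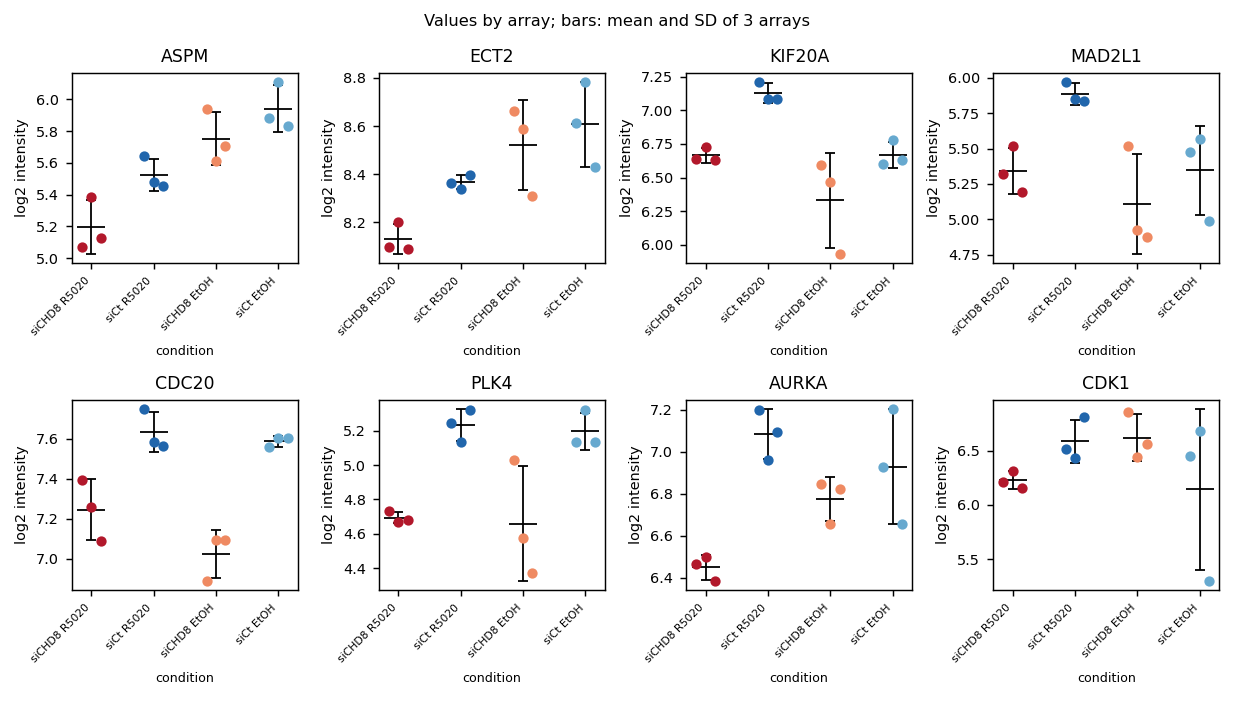
Log2 intensities of 8 genes on the 12 arrays (points) by condition, with the mean and SD of 3 arrays. ASPM is lower with R5020 under either siRNA, CDC20, PLK4 and AURKA are lower with siCHD8 on average over both treatments, and the CDK1 panel shows the siCt EtOH array at 5.30.

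The difference between the responses to R5020, siCHD8 minus siCt, was tested in the same model. By limma 0 of 47 genes were called and 0% of all probe sets were, and 3 genes had an unadjusted p under 0.05, against 9.56% of all probe sets. These were CDK1 (-0.84, 95% interval -1.61 to -0.06), KIF11, the motor that pushes spindle poles apart (-0.62, -1.22 to -0.03), and AURKA (-0.48, -0.88 to -0.08), at adjusted p of 0.510, 0.514 and 0.506 from limma. TTK gave -0.55 (-1.17 to 0.08). The CDK1 value holds the siCt EtOH array at 5.30 and was -0.30 with the pair of vehicle arrays left out. Over the list 40 of 47 estimates were below 0, against 47.9% of all probe sets, with a median of -0.19. That share was not matched for level. The pattern did not hold without the pair of vehicle arrays: the median was -0.0027, with 24 estimates below 0. It was -0.08 without siCHD8 EtOH replicate 1 alone. The members deviated on average by 0.21 on siCHD8 EtOH replicate 1 and by -0.14 on siCt EtOH replicate 3. Leaving out either array can thus only raise their mean estimate here. Over all fits without 1 array the median was -0.29 to -0.08, with 31 to 41 estimates below 0. For ASPM, called in both siRNAs, the difference of responses was -0.14 with a 95% interval of -0.52 to 0.24.

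Other genes of the cell cycle gave the members a setting. For siCHD8 against siCt with R5020, 47.8% of all probe sets were below 0, as were 62.7% of those with a mean log2 intensity of at least 5. Lower without overlap were 15.3% of all. Of 55 further mitosis genes that were no members, 52 had an estimate below 0 in this comparison, with a median of -0.29, and 35 were lower without overlap. Of 35 measured G1/S and DNA replication genes, which act before mitosis, 35 were below 0 with a median of -0.34, and 28 were lower without overlap. Genes of both phases thus lay in the same direction. In 14 subunits and partners of the anaphase-promoting complex, 11 were below 0 with a median of -0.15, in 18 DREAM, MuvB, RB and E2F regulators 16 were below 0 with a median of -0.16, and of 5 CDK inhibitors 1 was below 0 with a median of 0.09. By limma 0 genes of these lists were called in that comparison, where 0.189% of all probe sets were. At an unadjusted p under 0.05, 27, 24, 4, 5 and 1 of them, in the same order of lists, were lower, against 7.67% of all probe sets. With EtOH the G1/S list had 1 call, CDC45, a part of the replicative helicase, at -0.59 (SE 0.11, adjusted p = 0.0498 from limma). Averaged over treatments, 4 of 35 G1/S genes, 4 of 55 other mitosis genes, 2 of 18 regulators and 1 of 14 genes of the anaphase-promoting complex were called lower, against 1.39% of all probe sets, and 0 genes of these lists were called higher. The regulators were E2F7 and MYBL2, which encodes B-MYB (-0.43, SE 0.08, adjusted p = 0.00967 from limma). MYBL2 and E2F7 were named after their values were seen.

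Under R5020 in siCt the G1/S list had 8 of 35 genes called higher and 0 lower, with a median of 0.23, where 8.1% of all probe sets were called higher and 6% lower. GINS2, a subunit of the replicative helicase, rose by 1.63 (SE 0.21), cyclin D1 (CCND1), which starts the passage through G1, by 1.05 (SE 0.12), and cyclin E2 (CCNE2), a partner of CDK2, by 0.82 (SE 0.11), all with an adjusted p at or below 8.8e-05 from limma. In siCHD8 the list also had 8 of 35 called higher and 0 lower, against 6.04% and 5.43% of all probe sets, with a median of 0.10, and GINS2 had 1.37, CCND1 1.12 and CCNE2 0.67. Of the 55 other mitosis genes, with the same shares of all probe sets as background, 2 were called higher in siCt, ZW10, a protein of the kinetochore (0.52, SE 0.10), and STIL, which acts in centriole duplication (0.50, SE 0.15), and 1 called lower, NCAPH, a condensin subunit (-0.42, SE 0.12). In siCHD8 1 was called higher, ZW10 (0.37, SE 0.10), and 2 lower, NSL1, a kinetochore protein of the MIS12 complex (-0.55, SE 0.12), and the condensin subunit NCAPD2 (-0.45, SE 0.12), which were both named after their values were seen.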

How the data were processed

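RNA of 12 samples was hybridized to Affymetrix Human Gene 1.0 ST arrays. The deposited values are log2 intensities of 33297 probe sets, which the authors extracted with Affymetrix Command Console, normalized by RMA and processed with oneChannelGUI. Software versions and filters were not given in the sources used here. These values entered the fit as deposited. The platform annotation gives 19461 probe sets 1 symbol, 1753 several and 12083 none. The 21214 with a symbol were fitted with 1 mean per condition in limma 3.58.1 (R 4.3.3; lmFit, eBayes), with Benjamini-Hochberg adjustment over them. A gene with several probe sets of its own is given by the brightest. The number of arrays limits precision: the median SE was 0.13 for 3 against 3 arrays and 0.19 for the difference of responses. A probe set with a mean log2 intensity under 5 was called dim.

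The members, lists and thresholds were chosen with earlier results of these data known. Named with values were members called, or the 4 with the largest change where none was, per role group the one with the highest level and the one with the largest hormone change in siCt, and up to 3 genes of each list; others are named as ends of a range. CCNB1 and KIF4A were added after their values were seen. Replicate numbers of different conditions were not treated as pairs. Promoters came from RefSeq (GRCh38.p14), and protein sequences were not used here. The fit was tested on simulated data. As alternatives, arrays were left out, weighted, median centred or quantile normalized. Other fits used all probe sets, left out dim ones, took 1 per gene or their mean, used a trended and robust variance, the compared conditions alone, a replicate block, or an adjusted p under 0.01. Figures used Python 3.11.15, pandas 2.3.3 and matplotlib 3.10.9.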

Additional observations from a re-analysis of the deposited data

How the results depend on the processing

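Of 908 values under alternative settings, 747 kept their direction and their side of the threshold or stayed within the spread, and 0 changed sign against a call. With R5020, the estimates of siCHD8 against siCt stayed below 0 for every member measured in every alternative run, of which those that only leave out vehicle arrays cannot move them; the calls in that comparison were 0 in the fit reported and 10 with array weights, 4 with the compared conditions alone, 3 with siCt EtOH replicate 3 and siCHD8 EtOH replicate 1 left out, 1 each with dim probe sets left out, median centring and a trended and robust variance, and 0 to 1 without 1 array. With EtOH the 1 call of the knockdown became 0 at an adjusted p under 0.01, with all probe sets, array weights, the compared conditions alone, median centring or the replicate block, and 0 to 1 without 1 array; the median was -0.35 with the pair of arrays left out and -0.28 to -0.06 without 1 array. Averaged over treatments the 3 calls became 1 at an adjusted p under 0.01 and with all probe sets, 14 with array weights, 11 with dim probe sets left out, 6 with median centring, 20 without the pair, 8 with a trended and robust variance, and 2 to 13 without 1 array. For R5020 in siCHD8 the 2 calls became 1 at an adjusted p under 0.01, with all probe sets, the compared conditions alone or median centring, 4 with dim probe sets left out or quantile normalization, and 1 to 3 without 1 array, and the median of -0.18 became -0.029 without the pair and lay between -0.22 and -0.029 without 1 array. For R5020 in siCt the 2 calls became 0 at an adjusted p under 0.01 and with all probe sets, 5 with dim probe sets left out, 4 with quantile normalization, 1 without the pair and 0 to 6 without 1 array. MAD2L1 was called higher beside KIF20A and ASPM with 1 probe set per gene or their mean, and with array weights. The same held with the compared conditions alone and with a trended and robust variance. For the difference of responses the count below 0 was 24 and the median -0.0027 without the pair. Without 1 array they were 31 to 41 and -0.29 to -0.08. Settings that leave out probe sets or arrays change the number tested or the samples. Otherwise the cause was not tested. Shares of all probe sets called are given for the fit reported alone, so these counts have no background beside them.

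Same-numbered arrays of different conditions did not deviate together: over 18 pairs the correlation of deviations ran from -0.247 to 0.196, 4 pairs exceeded 0.1, and 5 of 12 arrays correlated best with their own number. With the replicate number as a block there were 2 calls for R5020 in siCt (KIF20A and MAD2L1, both higher), 2 for R5020 in siCHD8, 0 for the knockdown with EtOH, 0 with R5020, 0 for the difference of responses, and 2 for the knockdown averaged over treatments (CDC20 and PLK4, so that AURKA lost its call).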
